A study of Drosophila melanogaster with 16 samples.

Results

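The transposon families mdg1, opus and Tabor were described across every assay of a study of piwi knockdown in the ovary of Drosophila melanogaster. They were chosen by their antisense RNA-seq level, which was at least 3676 RPM (reads-per-million) in every column, the control columns included. All 3 were listed in each table, among 119 elements in RNA-seq, 122 in GRO-seq and 125 in ChIP-seq. Because antisense RNA-seq values chose them, these values are given as a description and without a test.

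The ovaries came from flies of 3 to 5 days kept at 25 °C. In the tj piwi group tj-GAL4 drove knockdown of piwi, and in the nos piwi group nos-GAL4 drove it. The controls were the tj white and nos white groups, in which the same drivers knocked down white, an eye colour gene. The tj driver acts in somatic cells of the ovary and the nos driver in the germline, whereas whole ovaries were measured, so each library mixes both. All 4 groups carry a GAL4 driver and a knockdown. RNA-seq measured steady-state RNA from 150 ng of total RNA, GRO-seq measured nascent RNA in a nuclear run-on of about 100 ovaries, and ChIP-seq measured the histone mark H3K9me3 and an input from 50 ovaries. There were 16 samples, 1 for each assay library and group.

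mdg1, opus and Tabor are LTR retrotransposons, multi-copy families that move through an RNA copy of themselves. Their sense RNA carries the gag and pol genes needed for that copy. Antisense RNA of such elements is the usual source of the small piRNAs that pair with sense transcripts, and it is often made from clusters of old transposon copies. Piwi is a nuclear protein that carries piRNAs to nascent transposon transcripts, where it represses transcription, and H3K9me3 is the mark of silent chromatin tied to that repression. In cultured ovarian somatic cells mdg1 is a commonly used target of Piwi. These families have copies at many places in the genome, and the tables, made with build dm3, give a value per family and no position, so a value sums over all copies.

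The precision of the series is limited throughout. RNA-seq is stated to have 2 replicates, but each condition has 1 column, as it does in the other assays, so no difference below has a replicate check and no test between conditions was possible. The 8 ChIP-seq libraries had totals of 2514000 to 3047000 reads, recovered from the RPM values as their denominator and not stated by the authors. Of these totals transposons took 28.4% to 30.6% in H3K9me3 and 8.02% to 9.47% in input. The depth of RNA-seq and GRO-seq is unknown. The level of piwi and markers of ovarian cell types were not analysed here, so neither the knockdown nor the tissue label was checked. Fewer cells of a type and less RNA per cell cannot be told apart in such samples.

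mdg1 had the most antisense steady-state RNA of the 119 elements in every column. Its antisense level was 18928 RPM in tj piwi and 26618 RPM in tj white ovaries, and 21920 RPM in nos piwi and 21485 RPM in nos white ovaries. That was 37.4% and 40.2% of all antisense RPM listed for transposons under tj, and 34.4% and 39.6% under nos, in piwi and white knockdown in that order.

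Antisense RNA of opus was 4830 RPM in tj piwi and 5875 RPM in tj white ovaries, and 6438 RPM in nos piwi and 5320 RPM in nos white ovaries. Antisense RNA of Tabor was 3676 RPM in tj piwi and 5054 RPM in tj white ovaries, and 4173 RPM in nos piwi and 4453 RPM in nos white ovaries. By this level opus ranked 4 under tj and 3 under nos, and Tabor ranked 5 in every column. Together the 3 families held 54.3% of the antisense RPM listed in tj piwi and 56.7% in tj white, and 51.0% in nos piwi and 57.7% in nos white. Of the nascent antisense RPM in GRO-seq the same families held 5.22% in tj piwi and 5.30% in tj white, and 4.24% in nos piwi and 4.92% in nos white. The steady-state values chose the families and the nascent values did not, so a lower nascent share was likely in advance.

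The choice has no sharp edge. By the lowest antisense value over the 4 columns the order was mdg1 at 18928 RPM, BS at 10846 RPM, ZAM at 4878 RPM, opus at 4830 RPM, Tabor at 3676 RPM and then G2 at 1578 RPM. BS and ZAM therefore lay above Tabor without being among the families described here, and G2 was the first below it. BS and G2 are LINE-like elements, which have no long terminal repeats, and ZAM is an LTR element.

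Over the 4 antisense columns, the values that chose the families, the highest was 1.41 times the lowest for mdg1, 1.33 times for opus and 1.37 times for Tabor.

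Sense steady-state RNA was far lower for all 3. Sense RNA of mdg1 was 451 RPM in tj piwi and 217 RPM in tj white ovaries, and 266 RPM in nos piwi and 204 RPM in nos white ovaries. The sense level of opus was 474 RPM in tj piwi and 328 RPM in tj white ovaries, and 693 RPM in nos piwi and 511 RPM in nos white ovaries. The sense level of Tabor was 234 RPM in tj piwi and 66.7 RPM in tj white ovaries, and 112 RPM in nos piwi and 97.0 RPM in nos white ovaries. Every piwi column was above its own white column in sense RNA on the deposited scale, but relative to the median element opus was lower in piwi under tj, and all 3 were lower under nos.

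**Figure D1:**
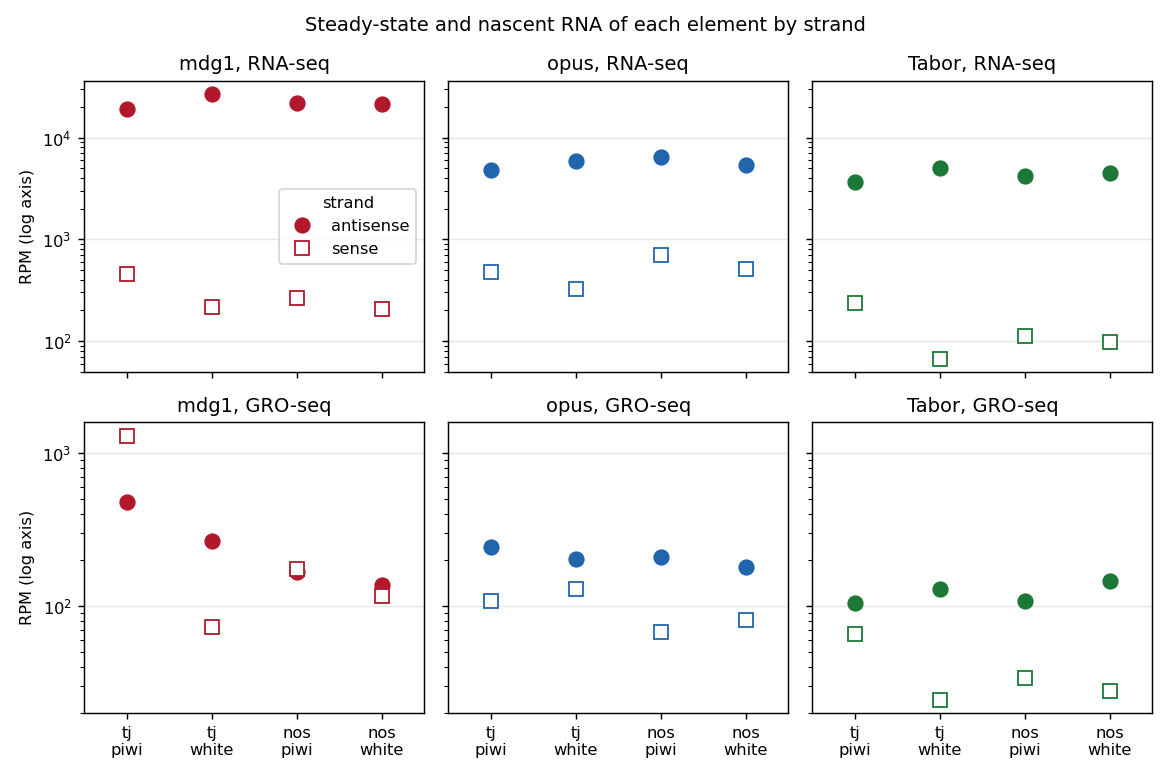
Antisense (filled circles) and sense (open squares) RPM on a log axis for mdg1, opus and Tabor, in RNA-seq above and GRO-seq below, with 1 value for each driver and knockdown. In RNA-seq the antisense circles lie above the sense squares in every column, by at least 9.28-fold, whereas in GRO-seq mdg1 has the sense square on top in both piwi columns, by a wide margin in tj piwi ovaries with 481 RPM antisense and 1306 RPM sense.

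Nascent RNA had another strand balance. Antisense nascent RNA of mdg1 was 481 RPM in tj piwi and 268 RPM in tj white ovaries, and 166 RPM in nos piwi and 138 RPM in nos white ovaries. Sense nascent RNA of mdg1 was 1306 RPM in tj piwi and 72.9 RPM in tj white ovaries, and 175 RPM in nos piwi and 117 RPM in nos white ovaries. The tj piwi value stood far above the other 3 sense values, which lay between 72.9 and 175 RPM.

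Antisense nascent RNA of opus was 244 RPM in tj piwi and 204 RPM in tj white ovaries, and 211 RPM in nos piwi and 180 RPM in nos white ovaries. Its sense nascent RNA was lower in every column, at 109 RPM in tj piwi and 129 RPM in tj white ovaries, and 68.2 RPM in nos piwi and 81.5 RPM in nos white ovaries. opus thus had slightly more nascent antisense and slightly less nascent sense RNA in piwi knockdown under both drivers.

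Antisense nascent RNA of Tabor was 105 RPM in tj piwi and 130 RPM in tj white ovaries, and 108 RPM in nos piwi and 147 RPM in nos white ovaries. Its sense nascent RNA was 65.5 RPM in tj piwi and 24.3 RPM in tj white ovaries, and 34.1 RPM in nos piwi and 27.9 RPM in nos white ovaries. The directions were the opposite of those of opus: less nascent antisense and more nascent sense RNA in piwi knockdown, under both drivers. Relative to the median element, nascent sense Tabor was lower in piwi under nos.

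The ratio of antisense to sense, on the RPM + 1 scale, put the assays side by side. In RNA-seq the antisense level of mdg1 was 41.9 times its sense level in tj piwi and 122 times in tj white, and 82.0 times in nos piwi and 105 times in nos white. For opus the same ratio was 10.2 in tj piwi and 17.9 in tj white, and 9.28 in nos piwi and 10.4 in nos white. Tabor had ratios of 15.7 in tj piwi and 74.7 in tj white, and 36.8 in nos piwi and 45.4 in nos white. Each ratio was lower in the piwi column, where sense RNA was higher.

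The median element went the other way, with log2 antisense over sense of -0.75 in tj piwi and -0.31 in tj white, and -0.88 in nos piwi and -0.38 in nos white. Only 37 to 49 of the 119 elements had more antisense than sense RNA in a column. By this ratio mdg1 ranked 2 in every column, behind G2, while Tabor ranked 4 to 6 and opus 6 to 12.

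In GRO-seq the antisense to sense ratio of mdg1 was 0.369 in tj piwi and 3.64 in tj white, and 0.950 in nos piwi and 1.18 in nos white. The share of nascent mdg1 RPM that was antisense was thus 26.9% in tj piwi and 78.6% in tj white, whereas the share of its steady-state RPM was 97.7% to 99.2% in all 4 columns. For opus the GRO-seq ratio was 2.24 in tj piwi and 1.57 in tj white, and 3.06 in nos piwi and 2.19 in nos white. Tabor had GRO-seq ratios of 1.59 in tj piwi and 5.18 in tj white, and 3.10 in nos piwi and 5.11 in nos white. On the log2 scale the median element was at 0.40 in tj piwi and 0.58 in tj white, and at -0.16 in nos piwi and 0.29 in nos white. Among 122 elements mdg1 ranked 107 in tj piwi and 18 in tj white, and 56 in nos piwi and 64 in nos white. opus ranked 31 in tj piwi and 59 in tj white, and 11 in nos piwi and 27 in nos white, so in tj white it was near the median element. Tabor ranked 45 in tj piwi and 3 to 11 elsewhere.

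**Figure D2:**
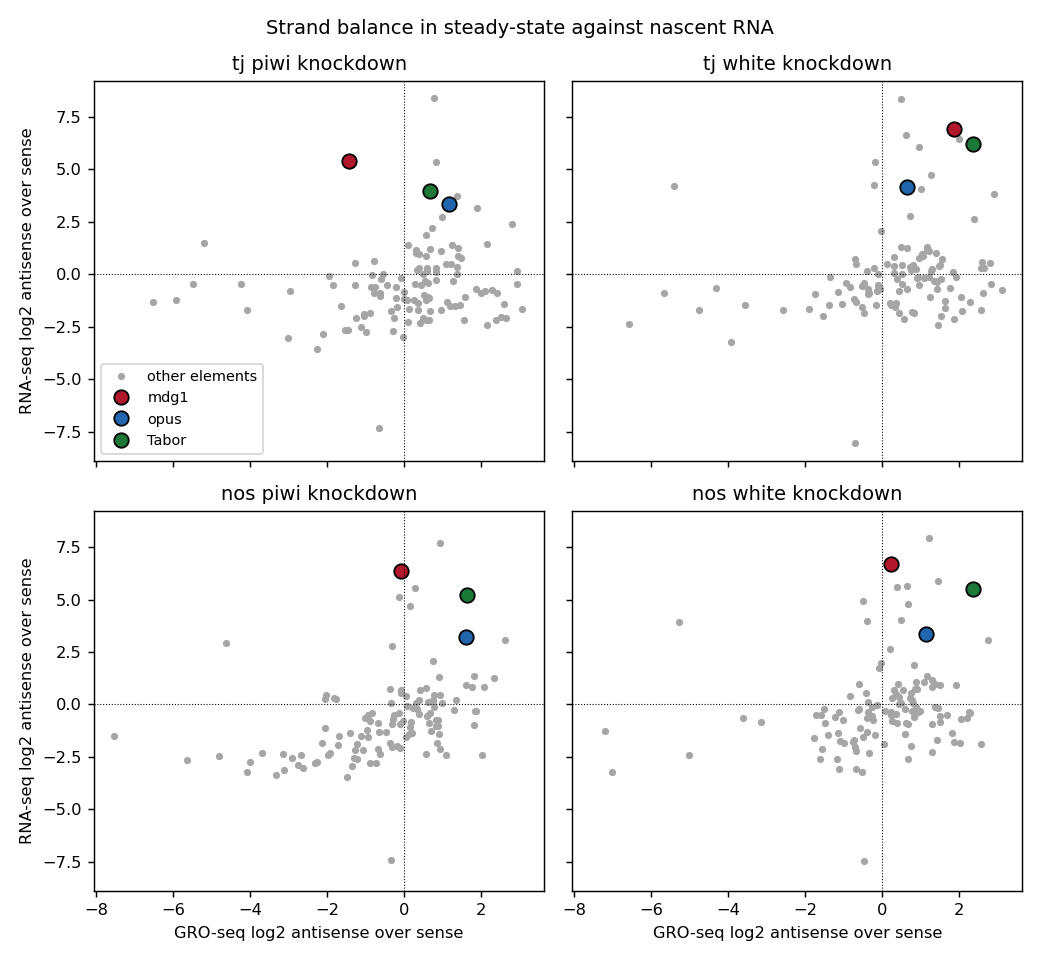
Each panel plots, for 1 driver and knockdown, log2 antisense over sense in RNA-seq (vertical) against the same in GRO-seq (horizontal), with mdg1, opus and Tabor in colour and the other elements in grey. The vertical position of mdg1 stays between 5.39 and 6.93 in all 4 panels, while it lies left of 0 on the horizontal axis in tj piwi ovaries and right of 0 in tj white ovaries.

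Subtracting the GRO-seq from the RNA-seq log2 strand ratio gives how much more antisense-biased steady-state RNA was than nascent RNA. The difference for mdg1 was 6.83 in tj piwi and 5.07 in tj white, and 6.43 in nos piwi and 6.48 in nos white. For Tabor it was 3.30 in tj piwi and 3.85 in tj white, and 3.57 in nos piwi and 3.15 in nos white. For opus it was 2.18 in tj piwi and 3.51 in tj white, and 1.60 in nos piwi and 2.25 in nos white. The median of 119 elements lay between -0.82 and -0.42, so all 3 families stood above it in every column, with ranks of 2 to 6 for mdg1, 8 to 13 for Tabor and 12 to 18 for opus. The RNA-seq strand ratio chose the families in part, so no test is attached.

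For the 3 families, as for BS, ZAM and G2, the ratio of RNA-seq to GRO-seq RPM was high on the antisense strand in particular. RPM is relative to each library, so this ratio ranks elements within a condition and is not an amount of RNA per transcript made. On the antisense strand it was 39.3 for mdg1 in tj piwi and 98.8 in tj white, and 131 in nos piwi and 155 in nos white. opus stood at 19.7 in tj piwi and 28.6 in tj white, and 30.4 in nos piwi and 29.5 in nos white. Tabor stood at 34.8 in tj piwi and 38.6 in tj white, and 38.3 in nos piwi and 30.1 in nos white. The median element was at 0.152 in tj piwi and 0.144 in tj white, and at 0.269 in nos piwi and 0.140 in nos white, and the 3 families held ranks 2 to 7 of 119. Their antisense RNA-seq level chose them, so high ranks were largely set in advance. The trait is not particular to them. Over the columns the antisense ratio was 62.7 to 172 for BS, 21.2 to 474 for ZAM and 64.9 to 122 for G2, with ranks 1 to 5.

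On the sense strand the ratio of RNA-seq to GRO-seq was 0.346 for mdg1 in tj piwi and 2.94 in tj white, and 1.52 in nos piwi and 1.74 in nos white. opus had sense ratios of 4.33 in tj piwi and 2.52 in tj white, and 10.03 in nos piwi and 6.21 in nos white. Tabor had sense ratios of 3.53 in tj piwi and 2.68 in tj white, and 3.23 in nos piwi and 3.39 in nos white. The medians of all elements were 0.223 to 0.374. Sense mdg1 therefore ranked 56 of 119 in tj piwi and 6 in tj white, while opus and Tabor ranked 4 to 15 throughout. On this strand BS ranked 1 to 3, ZAM 3 to 6 and G2 18 to 58.

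Families differ in copy number and length, which the tables do not give, so levels of different families were also divided by their input reads. Per input RPM, antisense RNA-seq of mdg1 was 10.7 in tj piwi and 18.6 in tj white, and 10.3 in nos piwi and 12.1 in nos white. For Tabor the same quantity was 9.62 in tj piwi and 12.2 in tj white, and 10.5 in nos piwi and 9.39 in nos white. For opus it was 2.83 in tj piwi and 3.97 in tj white, and 4.23 in nos piwi and 3.92 in nos white. Tabor, with far less antisense RPM than mdg1, thus came close to mdg1 per input read, and opus stood below both in each column. The median element was at 0.00899 to 0.0228, and the 3 families ranked 2 to 6 of 119. Antisense RNA-seq level chose the families and is the numerator here, so high ranks were largely set in advance.

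Nascent antisense RNA per input RPM was much closer to that of the median element. It was 0.272 for mdg1 in tj piwi and 0.187 in tj white, and 0.0782 in nos piwi and 0.0778 in nos white, where the median elements were at 0.157, 0.122, 0.105 and 0.0964 in the same order. For opus it was 0.143 in tj piwi and 0.138 in tj white, and 0.138 in nos piwi and 0.132 in nos white. For Tabor it was 0.274 in tj piwi and 0.314 in tj white, and 0.272 in nos piwi and 0.310 in nos white, above the median element in each column. Among 122 elements Tabor ranked 9 to 21, mdg1 22 to 81 and opus 34 to 67.

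The change in piwi knockdown was taken as the log2 ratio of RPM + 1 in piwi over white in every element whose 4 columns of that strand averaged 1 RPM or more. This scale understates changes of low elements. An element was counted as called when it was at least 2-fold higher or lower.

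Under the tj driver, sense steady-state RNA was 2.08-fold higher in piwi than in white knockdown for mdg1, 1.45-fold for opus and 3.47-fold for Tabor. So 2 of the 3 families passed 2-fold, where 38.9% of 113 elements did so upward and 1.77% downward. Relative to the median element 1 did, Tabor at a log2 ratio of 1.105, while mdg1 was at 0.37 and opus at -0.16, and 24 elements in place of 44 were called higher. The log2 ratios were 1.05, 0.53 and 1.79, the median element was at 0.69, and the median of 58 LTR elements was at 1.12, with 33 of them at least 2-fold higher and 2 lower. Tabor ranked 24, mdg1 41 and opus 64 of 113.

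Nascent sense RNA under tj separated the families further. It was 17.7-fold higher in piwi than in white knockdown for mdg1, rank 4 of 122, and 2.63-fold higher for Tabor, rank 15. For opus it was 0.840 times the white value, rank 116. Here 2 of the 3 families passed 2-fold upward, where 21.3% of elements did and 0% passed it downward. On the log2 scale the ratios were 4.14 for mdg1, 1.39 for Tabor and -0.25 for opus, beside a median of 0.38 for all elements and 0.65 for 59 LTR elements, of which 22 were at least 2-fold higher. For mdg1 the nascent ratio was thus much larger than the steady-state ratio of 2.08.

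Antisense steady-state RNA under tj was 0.711 times the white value for mdg1, 0.822 times for opus and 0.727 times for Tabor. None of the 3 passed 2-fold either way, where 17.4% of 109 elements were called higher and 0.917% lower. The log2 ratios were -0.49, -0.28 and -0.46, while the median element was at 0.35 and the LTR median at 0.41, with 13 of 58 LTR elements at least 2-fold higher and 1 lower. Negative ratios were found for 33 of the 109 elements (30.3%), and the families ranked 100, 91 and 96. The elements next to them in antisense level were at 0.851 (BS), 0.770 (ZAM) and 0.725 (G2) times the white value.

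Nascent antisense RNA under tj was 1.79-fold higher in piwi than in white knockdown for mdg1 and 1.20-fold higher for opus, and it was 0.806 times the white value for Tabor. None passed 2-fold, where 13.9% of elements were called higher and 0% lower. For mdg1 and opus the nascent antisense ratio was above 1 and the steady-state antisense ratio below 1. With the ratio taken relative to the median element of its strand, opus too was below 0 in nascent antisense RNA, at a log2 of -0.09. Nascent antisense RNA of ZAM, by contrast with the families described here, was 230 RPM in tj piwi and 12.4 RPM in tj white ovaries.

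**Figure D3:**
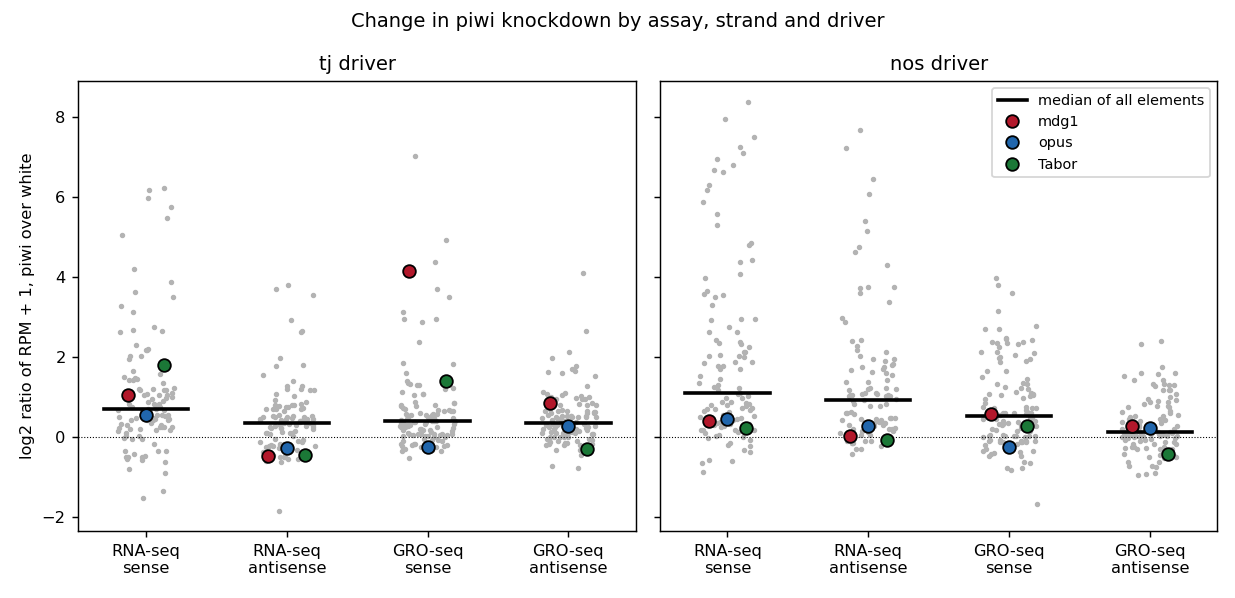
Log2 ratios of RPM + 1, piwi over white, for each assay and strand under the tj (left) and nos (right) drivers, with mdg1, opus and Tabor as large coloured points, other elements as grey points and the median as a bar. Sense nascent mdg1 under tj, at 4.14, stands apart from the other 2 families, and the antisense RNA-seq points of all 3 lie below the median bar under both drivers.

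Under the nos driver all 3 families differed by less than 2-fold in both assays and on both strands, on the deposited scale. Sense steady-state RNA was 1.30-fold higher in piwi than in white knockdown for mdg1, 1.36-fold for opus and 1.16-fold for Tabor. None passed 2-fold, where 52.2% of 113 elements did so upward and 0% downward. The log2 ratios of 0.38, 0.44 and 0.21 lay below the median of 1.098, so relative to the median element the 3 families were lower, at -0.72, -0.66 and -0.89. The LTR median was 1.95, and 36 of 58 LTR elements were at least 2-fold higher.

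Antisense steady-state RNA under nos was 1.02-fold the white value for mdg1, 1.21-fold for opus and 0.937 times for Tabor. None passed 2-fold, where 48.6% of elements did upward and 0% downward. The log2 median was 0.93, so relative to it the families were at -0.90, -0.65 and -1.02. On that scale Tabor was past 2-fold lower, as were 11 elements in all. Of 58 LTR elements 31 were at least 2-fold higher.

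Nascent sense RNA under nos was 1.50-fold the white value for mdg1, 0.839 times for opus and 1.21-fold for Tabor, none past 2-fold, where 34.4% of elements were called higher and 0.82% lower. Nascent antisense RNA under nos was 1.21-fold, 1.17-fold and 0.736 times the white value for mdg1, opus and Tabor, none past 2-fold, where 14.8% were called higher and 0% lower. The difference between the drivers was not tested, since each rests on 1 library per knockdown.

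Of the control columns, tj white and nos white also differ. Nascent antisense mdg1 was 268 RPM in tj white and 138 RPM in nos white ovaries, 1.94-fold apart, while antisense steady-state mdg1 was 1.24-fold apart. That difference between controls in nascent antisense mdg1 was larger than the 1.79-fold between piwi and white knockdown under tj. Its log2 ratio of tj white over nos white was 0.96, beside 0.22 for the median element. In nascent antisense RNA the same ratio was 1.14-fold for opus and 0.886 times for Tabor. Nascent sense mdg1 went the other way, at 0.627 times.

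H3K9me3 over the 3 families was below that of the median element. The ratio of H3K9me3 to input was 1.76 for mdg1 in tj piwi and 1.99 in tj white, and 1.71 in nos piwi and 1.66 in nos white. For opus it was 2.00 in tj piwi and 2.19 in tj white, and 1.99 in nos piwi and 2.24 in nos white. For Tabor it was 2.82 in tj piwi and 2.81 in tj white, and 2.46 in nos piwi and 2.04 in nos white. The median element was at 2.98 in tj piwi and 3.33 in tj white, and at 2.63 in nos piwi and 2.96 in nos white.

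Comparing this ratio between the knockdowns, with 95% intervals that cover counting error only, mdg1 in tj piwi was 0.888 of tj white (0.843 to 0.935). opus was 0.914 (0.868 to 0.962) and Tabor 1.003 (0.909 to 1.11). So 2 of the 3 families had an interval below 1 under tj, where 47.4% of 114 elements did and 4.39% had one above 1. The median element was at 0.909, so mdg1 and opus were close to it.

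Under nos, mdg1 in piwi was 1.03 of white (0.979 to 1.08), opus 0.885 (0.838 to 0.935) and Tabor 1.21 (1.097 to 1.34). One family, opus, had an interval below 1, where 60.9% of 115 elements did, and 1 family, Tabor, had one above 1, where 6.09% did. The median element was at 0.888. Tabor ranked 6 and mdg1 18 from the highest.

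The tj ratio over the nos ratio was 0.864 for mdg1 (0.804 to 0.927), 0.829 for Tabor (0.721 to 0.952) and 1.03 for opus (0.958 to 1.11), again with counting error alone. The authors' deposited comparison tables scale H3K9me3 of piwi over white by a further 1.19 under tj and 0.839 under nos, and with that scale, input unscaled, 3 of the signs turn. The log2 ratio of piwi over white becomes 0.08 for mdg1 and 0.12 for opus under tj and -0.21 for mdg1 under nos. Tabor is then at 0.26 under tj, with an interval above 0, and at 0.02 under nos, where the interval spans 0. The log2 ratio of opus under nos stays below 0. On that scale tj therefore lies above nos for mdg1, opus and Tabor, so the tj over nos ratios of mdg1 and Tabor turn round. The tj over nos ratios and their intervals thus depend on the scale used.

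The input libraries themselves differed. Input of mdg1 was 1768 RPM in tj piwi and 1434 RPM in tj white, a ratio of 1.23 (1.18 to 1.29), and 2129 RPM in nos piwi and 1769 RPM in nos white, a ratio of 1.20 (1.16 to 1.25). Input of opus was 1708 RPM in tj piwi and 1478 RPM in tj white, a ratio of 1.16 (1.11 to 1.21), and 1523 RPM in nos piwi and 1359 RPM in nos white, a ratio of 1.12 (1.07 to 1.17). Input of Tabor was 382 RPM in tj piwi and 414 RPM in tj white, a ratio of 0.922 (0.847 to 1.005), and 396 RPM in nos piwi and 474 RPM in nos white, a ratio of 0.835 (0.769 to 0.907). The median element had an input ratio of 1.08 under tj and 1.13 under nos. Input intervals above 1 were found for 43% of elements under tj and 59.1% under nos, and intervals below 1 for 10.5% and 6.96%.

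The input of Tabor under nos moved opposite to its enrichment. Without division by input, H3K9me3 RPM of Tabor was 976 in nos piwi and 966 in nos white, a log2 ratio of 0.02. Likewise H3K9me3 RPM of mdg1 was 3118 in tj piwi and 2848 in tj white, above the white value before division by input and below it after. The H3K9me3 over input ratio of piwi over white is the H3K9me3 ratio divided by the input ratio. For Tabor under nos, 1.21 came from 1.01 for H3K9me3 and 0.835 for input. For mdg1 under tj, 0.888 came from 1.09 for H3K9me3 and 1.23 for input. Why the input libraries differed was not tested.

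**Figure D4:**
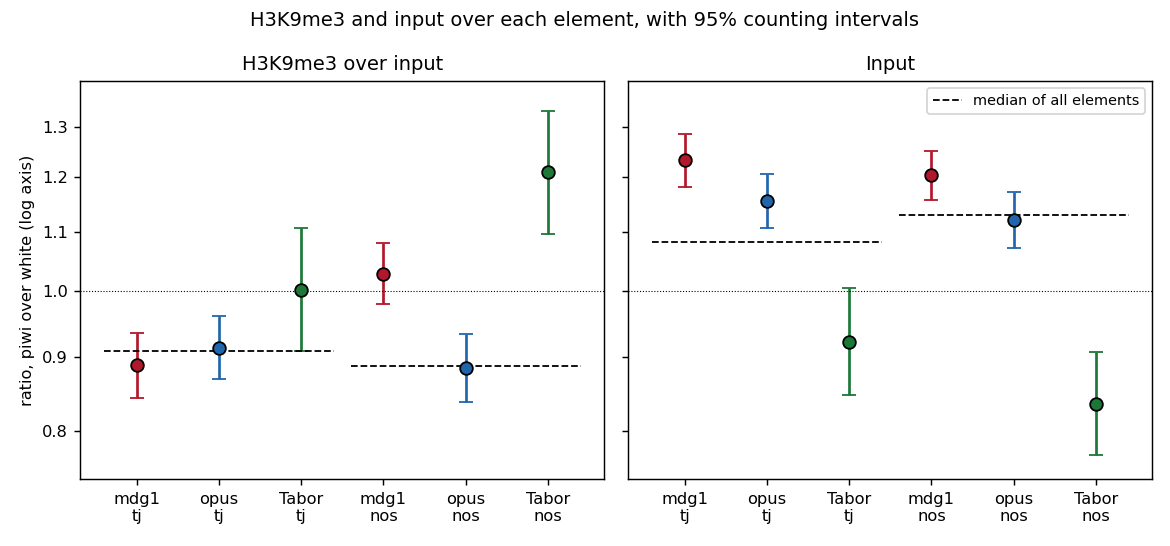
Ratio of piwi over white knockdown for H3K9me3 over input (left) and for input alone (right), on a log axis, with 95% counting intervals as bars and the median of all elements as a dashed line. Tabor under nos has the highest H3K9me3 over input ratio of the 6 points, 1.21, and the lowest input ratio, 0.835.

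The authors' deposited table compares H3K9me3 alone. In the authors' deposited table, mdg1 under tj had a fold of 1.30 in piwi over white with an adjusted p of 0.0127, and opus had 1.26 with an adjusted p of 0.0282. Under nos the authors' deposited table gives folds of 1.04 for mdg1, 0.832 for opus and 0.848 for Tabor, with adjusted p of 0.867, 0.224 and 0.640, and under tj 1.102 for Tabor with 0.712. An adjusted p under 0.05 was given in the authors' deposited table for 13.6% of 125 elements under tj and 16% under nos. These folds carry the further scaling given above. Without it the tj ratios of H3K9me3 RPM, piwi over white, were 1.09 for mdg1 and 1.06 for opus. Divided by input they were below 1, at 0.888 and 0.914. Each comparison has 1 H3K9me3 library per knockdown, so the adjusted p cannot cover spread between ovary samples.

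The elements whose 16 RNA-seq and GRO-seq values were most like each family were found by Pearson r over log2 RPM + 1, among 118 other elements. For mdg1 these were Tabor at 0.947, G2 at 0.928 and opus at 0.897. For opus they were BS at 0.961, Tabor at 0.959 and mdg1 at 0.897, and for Tabor they were opus at 0.959, mdg1 at 0.947 and G2 at 0.928. The 16 points share libraries and hold 2 assays and both strands, and the antisense RNA-seq values that chose the families are among them.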

How the data were processed

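The RNA-seq, GRO-seq and ChIP-seq transposon tables hold RPM per element, in RNA-seq and GRO-seq by strand, made by the authors, per the file headers. The deposited ChIP-seq table also gives the ratio of H3K9me3 to input. The authors' comparison tables give a fold, its log2 and p-values. Per the submitters' processing notes, Bowtie2 2.0.0, TopHat2 2.0.5, DESeq 1.10.1, SICER 1.1 and build dm3 were used. The role of each, the RPM denominator, the treatment of reads that match several copies or related families, and which consensus strand is called sense are not given in the sources used here. Multi-mapping can share reads between families.

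Groups came from the sample titles. The families and the list of 60 LTR names were chosen with earlier results of these data known. Named elements were the 3 families, the 3 most like each by Pearson r, and the 3 others with the highest lowest antisense value. Ratios used log2(RPM + 1), with a filter of a mean of 1 RPM and a mark of 2-fold. ChIP-seq values were whole reads within 1e-06, which gave library totals. Ratios of H3K9me3 to input needed 100 reads in each library, and 95% intervals came from the read counts. The intervals were tested on counts simulated with counting error alone, so that test does not cover spread between libraries. The libraries had no stated molecular identifiers, so duplicate reads may share a molecule and the intervals allow for counting error alone. RNA-seq and GRO-seq values followed none of the read steps tried, so their depth was not recovered. At the best step, 2.94% to 14.0% of RNA-seq values under 5 RPM were whole within 1e-06 RPM. Of such GRO-seq values 80.0% to 84.6% were whole within a far wider 0.0051 RPM, which the rounding of that table needs. For RNA-seq the only steps tried were the lowest value divided by a few small whole numbers, so another step may exist. No model was fitted. Another 6 columns with no sample name, small RNAs and region lists were not used here. Alternatives were pseudocounts of 0.1 and 5 RPM, filters of 0 and 10 RPM, read minimums of 20 and 500, centring on the median element, no input, and H3K9me3 scaled as in the authors' comparison tables, with input unscaled. Python 3.11.15, numpy 2.4.6 and pandas 2.3.3 were used.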

Additional observations from a re-analysis of the deposited data

Results flagged for a closer look

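In 3 cases the piwi over white ratio pointed one way under tj and the other way under nos. Each driver has 1 library per knockdown, so the difference between drivers was not tested, except in H3K9me3, where only counting error was covered. Antisense steady-state RNA of mdg1 had a log2 ratio of -0.49 under tj and 0.0289 under nos. For opus the same log2 ratio was -0.28 under tj and 0.28 under nos. Relative to the median element the directions were alike, at -0.84 under tj and -0.90 under nos for mdg1 and at -0.63 under tj and -0.65 under nos for opus. The H3K9me3 over input ratio of mdg1 was 0.888 under tj and 1.03 under nos, and both directions turn round on the scale of the authors' comparison table.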

How the results depend on the processing

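No paired analysis was possible because each group has 1 column, and there was no replicate to leave out. Of 192 recomputed values, 143 stayed the same, 33 moved, 6 reversed, 5 became stronger and 5 weaker. An RNA-seq or GRO-seq log2 value stayed the same if it shifted by less than 0.1, and otherwise moved. An H3K9me3 or input ratio that kept its direction became stronger or weaker if its interval began or ceased to exclude 1. Otherwise it stayed the same. Such a ratio that changed direction was reversed if its first interval excluded 1, and otherwise moved. Of the 33 that moved, 10 also changed sign, 8 of them on centring.

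Centring on the median element gave, for mdg1, opus and Tabor in that order, RNA-seq sense log2 ratios of 0.37, -0.16 and 1.105 under tj and -0.72, -0.66 and -0.89 under nos. The centred RNA-seq antisense ratios were -0.84, -0.63 and -0.81 under tj and -0.90, -0.65 and -1.02 under nos. In GRO-seq the centred sense ratios were 3.76, -0.63 and 1.01 under tj and 0.0602, -0.77 and -0.24 under nos, and the antisense ratios 0.50, -0.086 and -0.65 under tj and 0.14, 0.10 and -0.57 under nos.

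A pseudocount of 5 RPM moved Tabor alone. Its nascent sense log2 ratio under tj became 1.27, its GRO-seq log2 antisense over sense 1.53 in nos piwi, 2.21 in nos white and 2.20 in tj white, and its sense log2 RNA-seq over GRO-seq 1.59 in nos piwi, 1.63 in nos white and 1.29 in tj white.

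For H3K9me3, leaving out input gave log2 ratios of 0.13, 0.0786 and -0.11 for mdg1, opus and Tabor under tj and 0.31, -0.0114 and 0.0152 under nos. Centring gave -0.0338, 0.0075 and 0.14 under tj, and 0.21 for mdg1 and -0.0041 for opus under nos. The scale of the authors' comparison table gave 0.0816, 0.12 and 0.26 under tj, and -0.21 for mdg1 and 0.0216 for Tabor under nos. Centred input ratios were -0.23 for Tabor under tj and -0.012 for opus under nos. The cause was not tested.

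Counts of elements called at 2-fold moved as follows. RNA-seq sense, higher, was 44 under tj and 59 under nos, and 24 and 38 after centring. RNA-seq sense, lower, was 2 under tj and 0 under nos, 4 and 2 with a pseudocount of 0.1 RPM, and 15 and 15 after centring. RNA-seq antisense, higher, was 19 under tj and 53 under nos, 11 and 29 with a pseudocount of 5 RPM, 11 and 24 after centring, and 12 and 30 with a mean of at least 10 RPM. RNA-seq antisense, lower, under nos was 0, and 11 after centring. GRO-seq sense, higher, was 26 under tj and 42 under nos, and 16 and 27 after centring. GRO-seq sense, lower, under nos was 1, 2 with a pseudocount of 0.1 RPM and 8 after centring. GRO-seq antisense, higher, under tj was 17, and 10 after centring, and lower was 0 under both, and 2 and 3 after centring.

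H3K9me3 intervals below 1 numbered 54 under tj, 20 after centring and 10 on the authors' scale. They numbered 70 under nos, 44 without input and 28 after centring. Intervals above 1 numbered 5 under tj, 22 without input, 22 after centring and 46 on the authors' scale. They numbered 7 under nos, 35 without input, 26 after centring, 2 on the authors' scale and 4 with at least 500 reads.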

Other observations

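Summed over the RNA-seq table, log2 antisense over sense was 0.98 in tj piwi and 1.43 in tj white, and 0.52 in nos piwi and 2.77 in nos white. Without mdg1, opus and Tabor the same sums gave -0.08 in tj piwi and 0.26 in tj white, and -0.47 in nos piwi and 1.69 in nos white. Leaving out families chosen for high antisense RNA had to lower these sums, so they are given as values only.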
